A study of Mus musculus with 16 samples.

Results

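The Sprouty and Spred genes are a family of feedback inhibitors of receptor tyrosine kinase signalling, and they were followed here in primary mouse preadipocytes with and without Fgf8b. The members were the entries of the deposited transcript table whose gene symbol is Spry1, Spry2, Spry3, Spry4, Spred1, Spred2 or Spred3. These 7 genes, of 29060 named genes in the table, are held in 35 entries, and all 7 passed the filter on low values. The cells were cultured from the stromal-vascular fraction of inguinal fat, a white storage depot under the skin, or of interscapular fat, a brown depot that makes heat. All groups came from C57BL/6N mice that carry a Ucp1 reporter. Each depot had a control and an Fgf8b group, which makes 4 groups with 4 libraries each, and no source used here gives the dose, the time of treatment or the age of the mice. Each library is called by its group and its label's number, 1 to 8 for white and 9 to 16 for brown preadipocytes.

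Fgf8b is a secreted fibroblast growth factor that binds FGF receptors and switches on the Ras-ERK kinase cascade. Cells answer such a signal by making inhibitors of the same cascade, among them the Sprouty and Spred proteins, which share a cysteine-rich domain at the C terminus that brings them to membranes. Sproutys act downstream of the receptor through partners such as Grb2 and Cbl. Spreds bring neurofibromin, the product of Nf1 and an off-switch for Ras, to the membrane. In mice, Spry1 has been tied to the choice of mesenchymal precursor cells between fat and bone fates.

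Each level below is the RPKM, the reads per length of transcript and per depth of the library, of 1 representative transcript, the RefSeq entry of the gene with the highest mean. Each fold change is that of the sum over all entries of a gene, on the log2(summed RPKM + 0.5) scale, which understates the change of low genes. Entries of a gene can count the same reads, so the sum can hold a read more than once. Each fold change is given with its standard error (SE) and the Benjamini-Hochberg adjusted p of a limma fit over all 15222 genes that passed the filter. A gene was called where the adjusted p was under 0.05. The design text speaks of 3 cultures while each group has 4 libraries, and no label ties libraries to cultures, so p-values measure only the spread between these samples, which may be technical. The depth recovered from the RPKM values ranged from 13.7 to 20.1 M reads, and both brown groups were shallower in mean than both white groups. It was 15.6 to 19.8 M in white control and 16.2 to 20.1 M in white Fgf8b libraries. Brown control libraries held 13.7 to 16.1 M and brown Fgf8b libraries 14.6 to 16 M. The library of brown control 15 stood apart, with a root mean square log2 distance of 0.279 from the rest of its group against 0.189 to 0.236 for the other 15 libraries.

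The cells expressed most listed preadipocyte markers and little of most mature adipocyte genes, although 1 label calls them adipocytes. Most but not all markers of the depots were higher in the depot they mark. Pdgfra, a receptor of adipose precursor cells, averaged 67.5 to 98.1 RPKM in the 4 groups. Of the 9 listed preadipocyte and fibroblast markers, 8 averaged at least 0.5 RPKM in each group, and Dpp4 averaged at most 0.389 RPKM. The markers moved both ways with Fgf8b. Col1a1 averaged 1776 and 415 RPKM in white and 1313 and 234 RPKM in brown control and Fgf8b libraries. Thy1 averaged 269 and 746 RPKM in white and 294 and 555 RPKM in brown ones. Pdgfrb and Ly6a were also lower in mean with Fgf8b in both depots, and Pdgfra was higher. The mature adipocyte genes Adipoq and Plin1 averaged at most 0.0424 and 0.0160 RPKM in any group, while Fabp4, which rises early in differentiation, averaged 5.82 to 18.1 RPKM. Zic1, a mark of the interscapular lineage, averaged 12.8 and 12.7 RPKM in brown and 0.176 and 0.162 RPKM in white groups, and Hoxc10, a posterior patterning gene, was the other way round at 45.7 and 39.5 RPKM in white and 2.67 and 2.502 RPKM in brown groups. Ebf2 and Lhx8 of the interscapular list were also higher in mean in brown groups under both treatments, and Prdm16 and Ucp1 were not. Prdm16 averaged 1.26 and 1.79 RPKM in white and 1.12 and 1.43 RPKM in brown control and Fgf8b libraries, and Ucp1 averaged 2.31 and 6.25 RPKM in white and 2.41 and 4.45 RPKM in brown ones. All 5 genes of the inguinal list were higher in mean in white groups under both treatments.

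Spry1 fell with Fgf8b in both depots while the other members rose, with Spry3 in brown preadipocytes the least certain. In white preadipocytes 6 of 7 members rose and 1 fell, and in brown preadipocytes again 6 rose and 1 fell. The brown count includes Spry3 (limma adjusted p = 0.0384), and it was 5 and 1 under both other scalings between libraries, among other alternatives. Fgf8b changed much of the transcriptome, so these counts stand beside a high background. Of all tested genes 65.7% were called in white preadipocytes, 36.3% as higher and 29.5% as lower, and 71.4% were called in brown preadipocytes, 36.7% as higher and 34.7% as lower. The balance of these calls over all genes turned with the scaling between libraries, from 5521 higher and 4486 lower to 4816 and 5033 with median-of-ratios factors in white, and from 5582 and 5282 to 4866 and 5940 with upper-quartile factors in brown preadipocytes. The ranges of the Fgf8b and control libraries, on the summed RPKM, were apart for 7 of 7 members in white and for 6 of 7 in brown preadipocytes, where Spry3 overlapped. Over all tested genes this held for 63.1% and 61.4%.

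**Figure D1:**
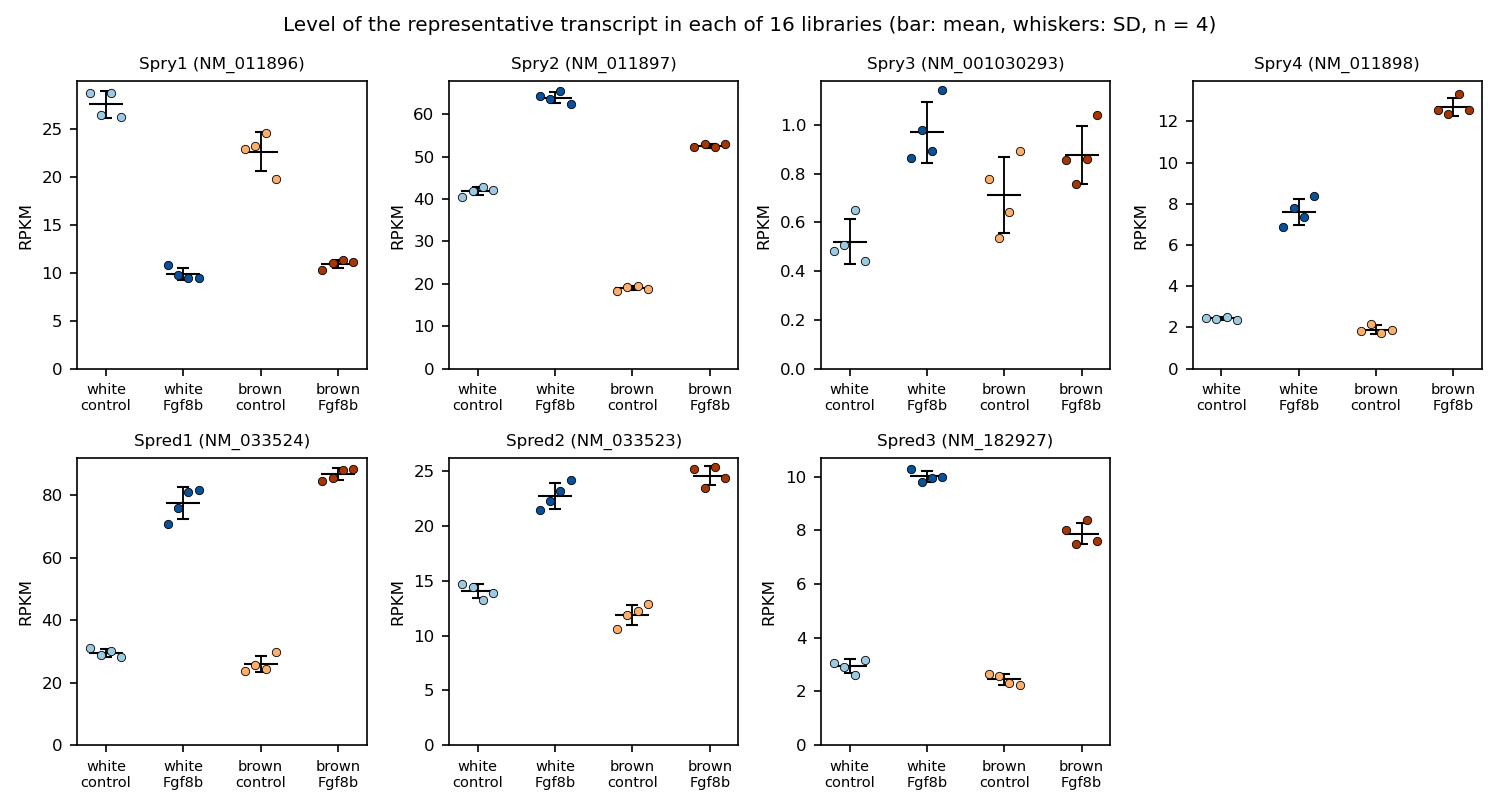
RPKM of the representative transcript of each of the 7 members (1 panel a gene, vertical axis from 0) in the 16 libraries, by group. Points are libraries, bars are group means and whiskers are SDs (n = 4). Spry1 sits lower with Fgf8b in both depots, at 9.86 and 10.96 RPKM against 27.6 and 22.6 RPKM, and the other members sit higher in mean.

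Spry1 was the member that fell. Its protein, like the other Sproutys, holds back ERK activation downstream of growth factor receptors. White control libraries 1, 3, 5 and 7 held 28.8, 26.5, 28.8 and 26.3 RPKM, and white Fgf8b libraries 2, 4, 6 and 8 held 10.8, 9.79, 9.44 and 9.45 RPKM. Brown control libraries 9, 11, 13 and 15 held 22.9, 23.3, 24.6 and 19.8 RPKM, and brown Fgf8b libraries 10, 12, 14 and 16 held 10.3, 11.1, 11.3 and 11.1 RPKM. Every Fgf8b library lay below every control library of its depot, with no overlap, and brown control 15 was the lowest of the controls. The mean went from 27.6 ± 1.40 to 9.86 ± 0.636 RPKM in white and from 22.6 ± 2.06 to 10.96 ± 0.426 RPKM in brown preadipocytes (SD, n = 4), levels that rest on 380 to 1329 reads per library. The log2 fold change was -1.47 (SE 0.063, limma adjusted p = 2.15e-13) in white and -1.04 (SE 0.063, limma adjusted p = 3.06e-11) in brown preadipocytes. All 4 entries of Spry1 moved alike, with log2 ratios of mean RPKM of -1.49 to -1.48 in white and -1.05 in brown preadipocytes. The entries held nearly equal reads, 1115 to 1128 in white control 1, so they appear to count largely the same reads. Their agreement is not separate evidence. In bulk samples, fewer cells of a type and less RNA per cell cannot be told apart. Of the exonic bases of Spry1, 24.4% overlap exons of Gm42922 on the opposite strand in the GENCODE M21 annotation. No source used here says whether the libraries keep strand, so reads from these overlapping bases cannot be told apart.

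Spry2 rose in both depots and started from unequal levels. Its protein binds the ubiquitin ligase Cbl through a conserved tyrosine near the N terminus. White controls 1, 3, 5 and 7 held 40.5, 41.9, 42.8 and 42.1 RPKM and white Fgf8b libraries 2, 4, 6 and 8 held 64.3, 63.6, 65.4 and 62.3 RPKM. Brown controls 9, 11, 13 and 15 held 18.3, 19.1, 19.5 and 18.8 RPKM and brown Fgf8b libraries 10, 12, 14 and 16 held 52.2, 53.0, 52.2 and 52.9 RPKM. The 4 groups did not overlap, in the rising order brown control, white control, brown Fgf8b, white Fgf8b. Means were 41.8 ± 0.949 and 63.9 ± 1.28 RPKM in white, and 18.9 ± 0.503 and 52.6 ± 0.449 RPKM in brown preadipocytes (SD, n = 4), from 525 to 2746 reads per library. The log2 fold change with Fgf8b was 0.63 (SE 0.047, limma adjusted p = 1.01e-09) in white and 1.47 (SE 0.047, limma adjusted p = 2.26e-15) in brown preadipocytes.

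Spry1 and Spry2 are close relatives that moved in opposite directions, and their promoters are shown for that reason, as the 250 bases before the transcription start, 5′ to 3′ on the strand of the gene. The sequences are from RefSeq on build GRCm38.p6, at chr3:37639697-37639946 (plus strand) for Spry1 and chr14:105896820-105897069 (minus strand) for Spry2. The third, chr11:19924192-19924441 (plus strand), is that of Spred2, which rose and holds the most capitals among the matched members. Capitals mark GGAA or its reverse complement TTCC, the core letters that ETS transcription factors bind, and ETS factors are known substrates and targets of ERK.
Spry1: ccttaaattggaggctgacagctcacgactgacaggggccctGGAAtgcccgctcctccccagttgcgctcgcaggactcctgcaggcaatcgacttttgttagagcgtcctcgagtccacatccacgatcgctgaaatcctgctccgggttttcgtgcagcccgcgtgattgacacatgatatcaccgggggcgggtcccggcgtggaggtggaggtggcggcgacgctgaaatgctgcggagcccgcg
Spry2: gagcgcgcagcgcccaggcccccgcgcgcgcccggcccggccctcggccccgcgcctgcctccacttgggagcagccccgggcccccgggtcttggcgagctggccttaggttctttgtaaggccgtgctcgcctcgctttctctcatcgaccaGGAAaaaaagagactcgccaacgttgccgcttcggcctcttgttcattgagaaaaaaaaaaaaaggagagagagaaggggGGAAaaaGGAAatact
Spred2: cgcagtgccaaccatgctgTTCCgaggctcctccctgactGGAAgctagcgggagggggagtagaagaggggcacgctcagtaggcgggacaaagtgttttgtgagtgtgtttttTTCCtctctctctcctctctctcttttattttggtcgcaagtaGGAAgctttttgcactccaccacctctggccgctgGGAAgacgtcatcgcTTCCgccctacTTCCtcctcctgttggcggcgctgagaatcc

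The RefSeq promoter table matched 5 of the 7 members. In the 250 bases before the start, GGAA or TTCC stood 1 time in Spry1 and in Spred3, 3 times in Spry2, 4 times in Spred1 and 7 times in Spred2. Over all 32851 promoters of that table the median was 3, with quartiles of 2 and 4. The single occurrence is thus shared by Spry1, which fell, and Spred3, which rose. The longer ETS letters CCGGAA, which contain GGAA, were searched on both strands from 250 bases before to 50 bases after the start. They stood in Spry2 alone among the matched members, beginning 34 bases after the start, and in 14.9% of all promoters. The bases around that match, at chr14:105896774-105896793 on the minus strand, follow with CCGGAA in capitals.
Spry2 match: atctatcCCGGAAtccggga

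Neither the AP-1 letters TGANTCA nor the E-box letters CACGTG nor the CArG box of serum response factor occurred in the same window of the matched members, on either strand. Among all promoters these were held by 7.81%, 7.15% and 1.63%. The counts describe letters in 1 window and not binding.

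Spry4 showed the largest log2 rise of the members in brown preadipocytes. Its protein binds Tesk1 and restrains Ras-ERK signalling. White controls 1, 3, 5 and 7 held 2.44, 2.40, 2.52 and 2.38 RPKM and white Fgf8b libraries 2, 4, 6 and 8 held 6.88, 7.78, 7.37 and 8.39 RPKM. Brown controls 9, 11, 13 and 15 held 1.81, 2.18, 1.72 and 1.86 RPKM and brown Fgf8b libraries 10, 12, 14 and 16 held 12.6, 12.3, 13.4 and 12.5 RPKM. No groups overlapped, and the depots changed order: brown was the lower depot under control and the higher one with Fgf8b. Means were 2.43 ± 0.0594 and 7.60 ± 0.640 RPKM in white, and 1.89 ± 0.200 and 12.7 ± 0.448 RPKM in brown preadipocytes (SD, n = 4), with 114 to 218 reads in control and 550 to 922 reads in Fgf8b libraries. The log2 fold change was 1.60 (SE 0.078, limma adjusted p = 1.56e-12) in white and 2.72 (SE 0.078, limma adjusted p = 4.23e-16) in brown preadipocytes. Its 5 entries, which can likewise share reads, gave log2 ratios of mean RPKM of 1.59 to 1.66 in white and 2.75 to 2.83 in brown preadipocytes.

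Spry3 was the lowest member, with 33 to 82 reads per library, and it is the Sprouty about which least is known. White controls 1, 3, 5 and 7 held 0.481, 0.507, 0.652 and 0.440 RPKM and white Fgf8b libraries 2, 4, 6 and 8 held 0.864, 0.980, 0.895 and 1.14 RPKM. Brown controls 9, 11, 13 and 15 held 0.780, 0.534, 0.644 and 0.895 RPKM and brown Fgf8b libraries 10, 12, 14 and 16 held 0.855, 0.757, 0.859 and 1.04 RPKM. The white groups were apart and the brown groups overlapped. In white preadipocytes the log2 fold change was 0.73 (SE 0.146, limma adjusted p = 0.000246). In brown preadipocytes it was 0.35 (SE 0.146, limma adjusted p = 0.0384), a call that was lost without brown Fgf8b 10 (limma adjusted p = 0.0554), brown Fgf8b 16 (limma adjusted p = 0.149), brown control 11 (limma adjusted p = 0.132) or brown control 13 (limma adjusted p = 0.0752), and on the representative transcript (limma adjusted p = 0.108).

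Spred1 was the most abundant Spred, and with Fgf8b the most abundant of all 7 members in RPKM, which is per length. Its protein binds neurofibromin, and loss of its human counterpart causes Legius syndrome, a disorder related to neurofibromatosis. White controls 1, 3, 5 and 7 held 30.96, 28.8, 30.0 and 28.2 RPKM and white Fgf8b libraries 2, 4, 6 and 8 held 70.9, 76.0, 81.3 and 81.8 RPKM. Brown controls 9, 11, 13 and 15 held 23.8, 25.7, 24.5 and 29.8 RPKM and brown Fgf8b libraries 10, 12, 14 and 16 held 84.5, 85.7, 88.3 and 88.5 RPKM. Control and Fgf8b libraries were far apart in both depots, while the controls of the depots overlapped through brown control 15. Means were 29.5 ± 1.23 and 77.5 ± 5.14 RPKM in white, and 26.0 ± 2.69 and 86.8 ± 1.964 RPKM in brown preadipocytes (SD, n = 4), from 981 to 4903 reads. The log2 fold change was 1.38 (SE 0.068, limma adjusted p = 1.65e-12) in white and 1.69 (SE 0.068, limma adjusted p = 5.77e-14) in brown preadipocytes.

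Spred2 rose least among the Spreds. Its protein, like that of Spred1, carries an EVH1 domain and restrains Ras-ERK signalling. White controls 1, 3, 5 and 7 held 14.7, 14.4, 13.2 and 13.9 RPKM and white Fgf8b libraries 2, 4, 6 and 8 held 21.4, 22.2, 23.2 and 24.2 RPKM. Brown controls 9, 11, 13 and 15 held 10.6, 11.9, 12.2 and 12.8 RPKM and brown Fgf8b libraries 10, 12, 14 and 16 held 25.2, 23.5, 25.4 and 24.3 RPKM. Fgf8b and control libraries were apart in both depots, and the Fgf8b libraries of the depots overlapped. With Fgf8b the log2 fold change was 0.69 (SE 0.059, limma adjusted p = 6.36e-09) in white and 1.09 (SE 0.059, limma adjusted p = 5.61e-12) in brown preadipocytes.

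Spred3, whose protein differs from the other Spreds in lacking a working KIT-binding domain, was the lowest Spred. White controls 1, 3, 5 and 7 held 3.06, 2.92, 2.61 and 3.18 RPKM and white Fgf8b libraries 2, 4, 6 and 8 held 10.3, 9.82, 9.95 and 9.996 RPKM. Brown controls 9, 11, 13 and 15 held 2.66, 2.58, 2.32 and 2.24 RPKM and brown Fgf8b libraries 10, 12, 14 and 16 held 8.03, 7.51, 8.38 and 7.60 RPKM. The controls of the depots overlapped, and all Fgf8b libraries lay above them, the white ones highest. The log2 fold change was 1.66 (SE 0.079, limma adjusted p = 9.82e-13) in white and 1.55 (SE 0.079, limma adjusted p = 2e-12) in brown preadipocytes. Ggn on the opposite strand shares 3.25% of the exonic bases of Spred3, and reads from them cannot be told apart either.

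**Figure D2:**
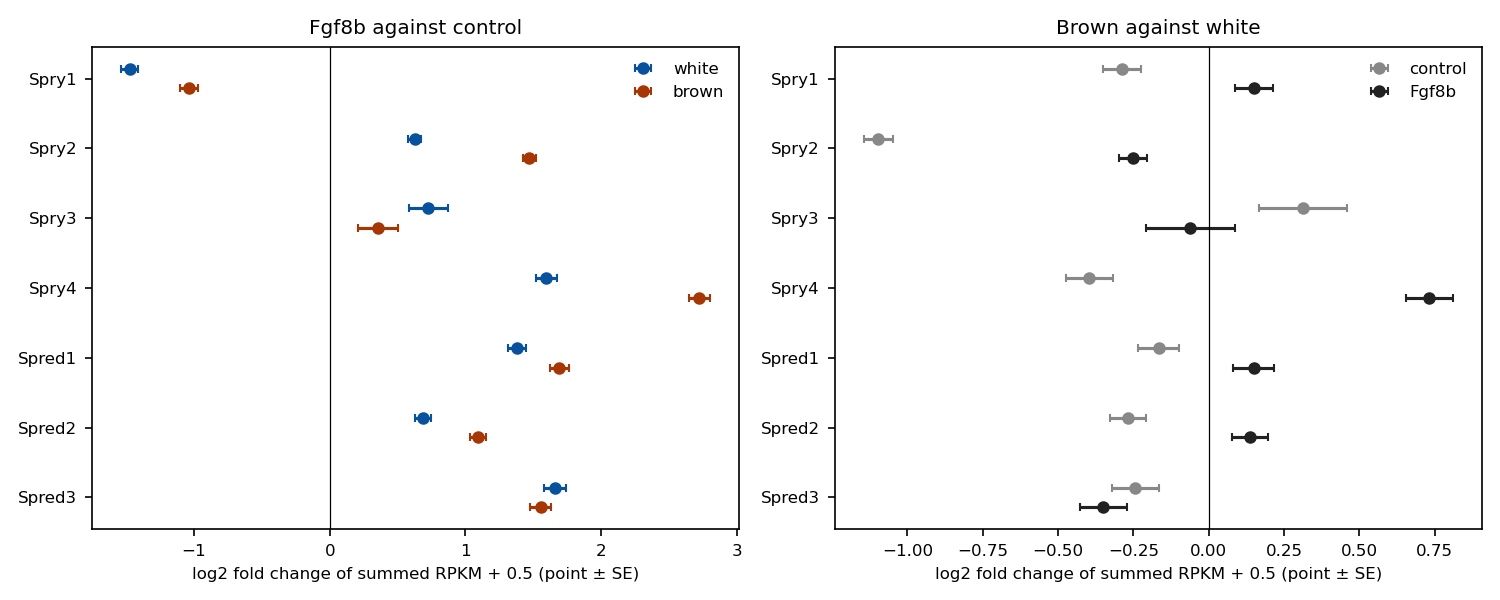
Log2 fold change of the summed RPKM + 0.5 (horizontal axis, point ± SE from limma, 16 libraries) of each member, for Fgf8b against control in each depot on the left and for brown against white under each treatment on the right. Spry1 lies left of 0 for Fgf8b in both depots, at -1.47 and -1.04, and Spry4 in brown preadipocytes lies farthest right at 2.72.

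The response differed between the depots for 5 of 7 members. The difference of the log2 fold changes, brown minus white, was 1.13 for Spry4 (SE 0.110, limma adjusted p = 3.49e-07) and 0.85 for Spry2 (SE 0.067, limma adjusted p = 2.86e-08), so both rose more in brown preadipocytes. Spred2 and Spred1 also rose more there, by differences of 0.40 (SE 0.084, limma adjusted p = 0.00103) and 0.31 (SE 0.096, limma adjusted p = 0.0157). For Spry1 the difference was 0.44 (SE 0.089, limma adjusted p = 0.000902), which is a smaller fall in brown preadipocytes. Spry3 gave -0.37 (SE 0.207, limma adjusted p = 0.178) and Spred3 gave -0.11 (SE 0.111, limma adjusted p = 0.502), and neither passed. Of all tested genes 34.9% were called for this difference, 17.1% with a positive and 17.8% with a negative sign, against 5 positive and 0 negative calls among the 7 members.

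Between depots under control treatment, 5 of 7 members were lower in brown preadipocytes and 0 were higher. Of all tested genes 33.9% were called in this comparison, 15.9% as lower and 18.1% as higher in brown. Spry2 differed most, at 18.9 against 41.8 RPKM, with a log2 fold change of -1.10 (SE 0.047, limma adjusted p = 2.25e-12). Spry4 followed at -0.40 (SE 0.078, limma adjusted p = 0.000586), Spry1 at -0.29 (SE 0.063, limma adjusted p = 0.00159) and Spred2 at -0.27 (SE 0.059, limma adjusted p = 0.00167). Spred3 was lower by -0.24 (SE 0.079, limma adjusted p = 0.0225), a call lost without white control 1 (limma adjusted p = 0.0683), white control 7 (limma adjusted p = 0.0719), brown control 13 (limma adjusted p = 0.0620) or brown control 15 (limma adjusted p = 0.0532). Spred1 gave -0.17 (SE 0.068, limma adjusted p = 0.0667) with all libraries and -0.25 (limma adjusted p = 0.000855) without brown control 15. Spry3 gave 0.31 (SE 0.146, limma adjusted p = 0.111). The ranges of the depots, on the summed RPKM, were apart for 4 of 7 members and for 31.5% of all tested genes. Depot runs with library number, and 145 accessions that stand more than once in the table have unequal values in the white and 0 in the brown libraries, so the white and brown columns may have been made separately.

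With Fgf8b the depots differed for 3 members, and 51.6% of all tested genes were called, 26.9% as higher and 24.7% as lower in brown. Spry4 was higher in brown preadipocytes, at 12.7 against 7.60 RPKM, with a log2 fold change of 0.73 (SE 0.078, limma adjusted p = 3.36e-07). Spry2 was lower in brown by -0.25 (SE 0.047, limma adjusted p = 0.000219) and Spred3 by -0.35 (SE 0.079, limma adjusted p = 0.00112). Spry1 gave 0.15 (SE 0.063, limma adjusted p = 0.0561), Spred1 0.15 (SE 0.068, limma adjusted p = 0.0750), Spred2 0.14 (SE 0.059, limma adjusted p = 0.0639) and Spry3 -0.06 (SE 0.146, limma adjusted p = 0.757). Some of these near misses turned into calls when 1 library was left out. Spry1 was called without white Fgf8b 2 (limma adjusted p = 0.0223), brown Fgf8b 10 (limma adjusted p = 0.0413), brown control 13 (limma adjusted p = 0.0467) or brown control 15 (limma adjusted p = 0.0174). Spred1 was called without brown control 15 (limma adjusted p = 0.0122) and Spred2 without white Fgf8b 8 (limma adjusted p = 0.0291), brown control 9 (limma adjusted p = 0.0380) or brown control 15 (limma adjusted p = 0.0392). Without brown control 15, 6 of 7 members were called. Control libraries enter this comparison only through the estimate of the spread that all 16 libraries share. Without brown control 15, the log2 fold changes of Spry1, Spred1 and Spred2 stayed at 0.15, 0.15 and 0.14. The ranges of the depots were apart for 4 of 7 members and for 49.2% of all tested genes.

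The make-up of each subfamily, as shares of its summed RPKM over representative transcripts, is given as a description. Spry1 made up 38.1% ± 1.37 of the summed Sprouty RPKM in white control and 11.98% ± 0.734 in white Fgf8b libraries, and 51.2% ± 2.29 and 14.2% ± 0.406 in the brown groups (SD, n = 4). Spry2 held 57.8% and 77.6% in the white and 42.9% and 68.2% in the brown groups, so that under control Spry1 was the larger share in brown and Spry2 the larger in white preadipocytes. Spry4 held 3.36% and 9.24% in the white and 4.29% and 16.5% in the brown groups. The summed Sprouty level was 72.4 ± 1.646 and 82.3 ± 0.791 RPKM in white and 44.2 ± 2.22 and 77.1 ± 0.8295 RPKM in brown control and Fgf8b libraries. With Fgf8b the depots thus lay nearer to each other in this sum than under control. The summed Spred level was 46.5 ± 1.52 and 110.3 ± 6.17 RPKM in white and 40.3 ± 3.32 and 119.2 ± 2.47 RPKM in brown preadipocytes. Among the Spreds, Spred1 held 63.5% and 70.2% in white and 64.4% and 72.8% in brown groups, and Spred2 held 30.2% and 20.7% in white and 29.5% and 20.6% in brown groups.

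**Figure D3:**
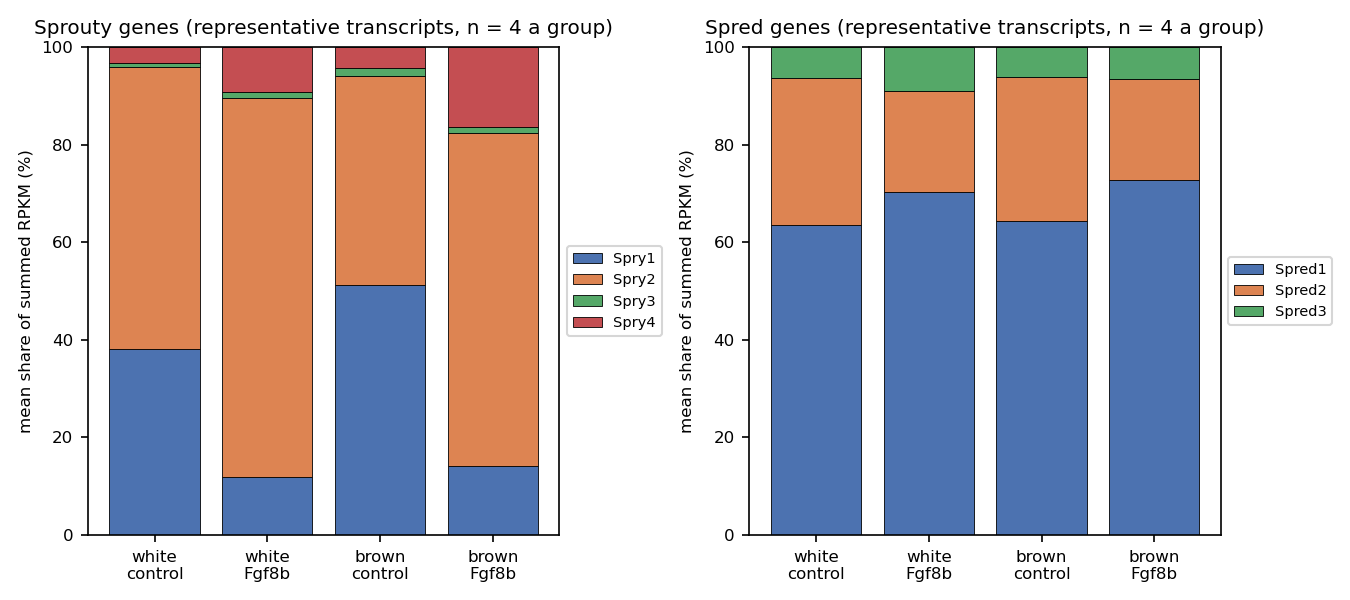
Mean share of the summed RPKM (vertical axis, %) that each Sprouty gene (left) and each Spred gene (right) held in the 4 groups, n = 4 libraries a group, from representative transcripts. The Spry1 share is 38.1% and 51.2% in the control groups and 11.98% and 14.2% in the Fgf8b groups, while the order of the Spred genes is the same in all 4 groups.

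In brown control 15, entries of the same gene could lie unequally far from the other brown controls. These ratios were computed for this library alone, so how unusual their spread is was not tested. The Spred1 entry AK053024 held 32.1 RPKM there and 20.1 to 22.6 RPKM in the other brown controls. The ratio of this library to the mean of the others was 1.44 for the Spred1 entry AK042131, 1.21 for the RefSeq entry of Spred1 and 0.904 for ENSMUST00000110901. For Spry2 it was 1.43 for AK086832 and 0.989 for the RefSeq entry. The 4 entries of Spry1, which held nearly equal reads, lay between 0.835 and 0.839. The Spred1 level of this library is the one that made the depots overlap under control. The Fgf8b calls of all members in brown preadipocytes were also made without this library.

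**Figure D4:**
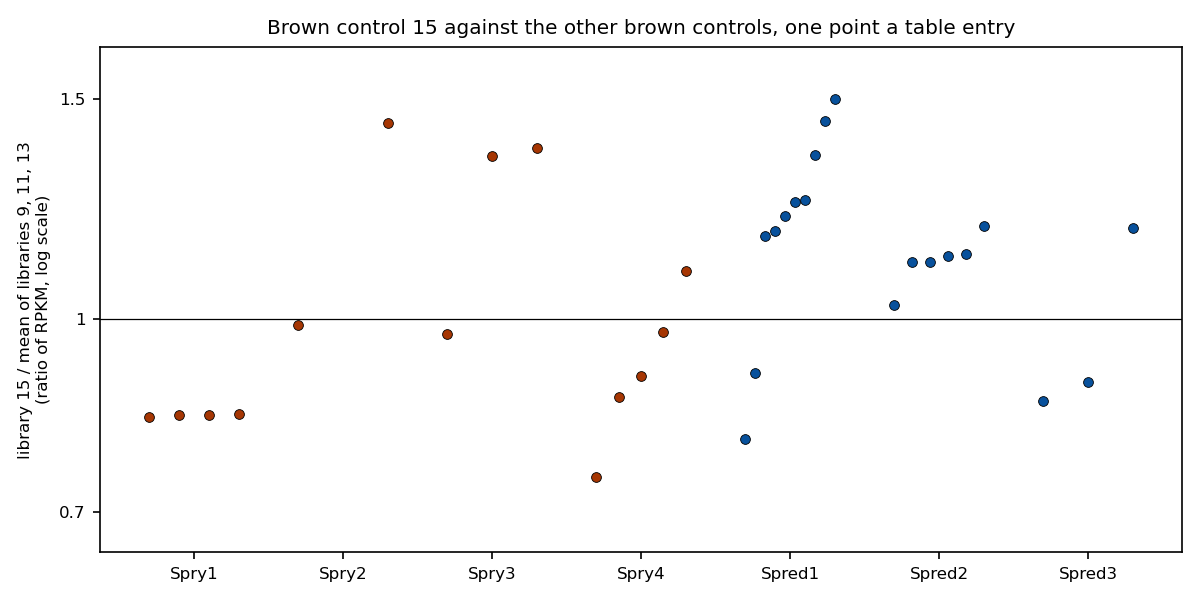
Ratio of the RPKM in brown control 15 to the mean of brown controls 9, 11 and 13 (vertical axis, log scale), 1 point for each table entry of a member, with a line at 1. The Spred1 entries spread from 0.800 to above 1.44 and the Spry1 entries lie together near 0.84.

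Genes around the family in the pathway were taken from lists of known roles, and they are given beside the family. Of the Ras-ERK cascade, the chain from adaptor proteins to ERK, 18 of 19 listed genes were found under the symbol used, and 9 rose and 6 fell in white, 8 rose and 6 fell in brown preadipocytes. The median log2 fold change of this list was 0.06 and 0.10, against 0.04 and 0.01 over all tested genes. As shares, 50% rose and 33.3% fell in white and 44.4% and 33.3% in brown preadipocytes, against 36.3% and 29.5%, and 36.7% and 34.7%, of all tested genes. Map2k1, which encodes the ERK kinase MEK1, rose from 46.0 to 83.7 RPKM in white and from 43.9 to 83.8 RPKM in brown preadipocytes (limma adjusted p = 3.01e-15 and 7.57e-16). Gab1, a docking protein of receptor signalling, fell from 7.52 to 4.34 RPKM and from 8.82 to 4.31 RPKM (limma adjusted p = 6.96e-09 and 1e-10), and Ksr1, a scaffold of the cascade, fell with a log2 fold change of -0.68 and -0.75 (limma adjusted p = 7.32e-08 and 1.35e-08).

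Of 16 known partners of Sprouty and Spred proteins, 11 rose and 3 fell in white and 11 rose and 4 fell in brown preadipocytes, with a median log2 fold change of 0.15 and 0.16. The shares that rose and fell were 68.8% and 18.8% in white and 68.8% and 25% in brown preadipocytes, to be read against the same shares of all tested genes. This list shares some members with the cascade list. Rasa1, a GTPase-activating protein that switches Ras off, rose from 16.9 to 46.8 RPKM in white and from 14.7 to 63.6 RPKM in brown preadipocytes (limma adjusted p = 1.28e-14 and 4.48e-17). Cbl, the ubiquitin ligase that Spry2 binds, rose with log2 fold changes of 0.58 and 0.63 (limma adjusted p = 6.34e-10 and 1.51e-10). Cav1, the main protein of caveolae, rose from 98.8 to 174.1 RPKM in white preadipocytes (limma adjusted p = 6.89e-15), and Mknk1, a kinase downstream of ERK, fell by 0.43 on the log2 scale in brown preadipocytes (limma adjusted p = 2.89e-05).

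Of 15 other feedback inhibitors of receptor tyrosine kinases, 10 rose and 4 fell in each depot, with a median log2 fold change of 1.02 in white and 0.99 in brown preadipocytes. These are 66.7% and 26.7% of the list, again beside 36.3% and 29.5% of all tested genes in white and 36.7% and 34.7% in brown preadipocytes. Dusp6, a phosphatase of ERK, rose from 3.98 to 26.4 RPKM in white and from 3.67 to 40.7 RPKM in brown preadipocytes (limma adjusted p = 1.02e-15 and 2.16e-17). Errfi1, an inhibitor of EGF receptors, rose from 64.5 to 253.3 RPKM in white preadipocytes (limma adjusted p = 4.77e-20), and Lrig1, a membrane protein that lowers receptor levels, rose from 13.8 to 45.9 RPKM there (limma adjusted p = 3.02e-17). Dusp4 rose from 6.34 to 69.4 RPKM and Dusp5 from 1.71 to 15.9 RPKM in brown preadipocytes (limma adjusted p = 2.76e-20 and 4.12e-16), and both encode phosphatases of ERK in the nucleus.

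Of 12 ERK-induced target genes outside the family, 9 rose and 3 fell in white and 10 rose and 1 fell in brown preadipocytes, with a median log2 fold change of 1.36 and 1.78. These are 75% and 25% in white, beside 36.3% and 29.5% of all tested genes, and 83.3% and 8.33% in brown, beside 36.7% and 34.7%. Etv4, an ETS factor, rose from 4.47 to 30.1 RPKM in white and from 2.22 to 26.1 RPKM in brown preadipocytes (limma adjusted p = 3.39e-16 and 8.31e-18). Ccnd1, which encodes cyclin D1, rose from 24.6 to 114.2 RPKM and from 23.2 to 143.1 RPKM (limma adjusted p = 3.12e-18 and 2.10e-19). Fosl1, an AP-1 subunit, rose from 5.50 to 59.7 RPKM in brown preadipocytes (limma adjusted p = 5.12e-19). Epha4, an ephrin receptor, went the other way in white preadipocytes and fell from 2.09 to 0.168 RPKM (limma adjusted p = 2.26e-14). For the difference of the responses, 9 of 15 other feedback inhibitors were called with a positive and 3 with a negative sign, 10 and 0 of the 12 ERK-induced targets, 2 and 1 of the 18 cascade genes and 2 and 3 of the 16 partners. Over all tested genes 17.1% were called with a positive and 17.8% with a negative sign.

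The genes most like each member over the 16 libraries were found by the root mean square difference of log2 values centred on each gene's mean, restricted to genes averaging 5 RPKM or more. For Spry1 these were Gaa at 0.094, Hexa at 0.113 and Slc38a7 at 0.120. Gaa and Hexa encode lysosomal enzymes and Slc38a7 an amino acid transporter. For Spry2 they were Lgals3 at 0.121, Enpp1 at 0.129 and Nudt6 at 0.180, and for Spry4 Soga2 at 0.136, Egr3, an immediate early transcription factor, at 0.161 and Thbd, which encodes thrombomodulin, at 0.172. Spry3 came nearest to Hmmr and Clcn3 at 0.148 and Gm15453 at 0.151. Spred1 came nearest to Gm8327 at 0.098, Lrrk2 at 0.122 and the glucose transporter gene Slc2a1 at 0.124, and Spred2 to Plat at 0.082, Zfp462 at 0.083 and Lclat1 at 0.084. Spred3 came nearest to Sipa1l3 at 0.104, the glycolysis gene Tpi1 at 0.113 and Steap2 at 0.124.

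Markers of other cell types moved with Fgf8b beside these results. The summed RPKM of 5 endothelial markers was 10.96 to 11.7 in white control and 2.39 to 2.88 in white Fgf8b libraries, and 7.31 to 8.56 and 1.41 to 1.73 in the brown groups, mostly through Tek, while the defining marker Pecam1 averaged at most 0.172 RPKM in any group. The sum of 5 Schwann cell markers was 9.98 to 11.7 and 1.78 to 2.59 RPKM in the white groups and 13.996 to 17.2 and 3.58 to 4.73 RPKM in the brown groups, with Sox10 at a mean of at most 1.23 RPKM. The sum of 5 skeletal muscle markers was 4.76 to 6.93 and 1.64 to 2.42 RPKM in white and 7.82 to 10.1 and 2.12 to 2.64 RPKM in brown groups, with Myod1 at 0 in all libraries. For 4 leukocyte markers the sum was 1.71 to 2.49 and 1.46 to 2.02 RPKM in white and 2.39 to 4.24 and 1.05 to 1.54 RPKM in brown groups, with Cd3e at 0 in all libraries. For 5 epithelial markers it was 0.152 to 0.267 and 1.19 to 1.42 RPKM in white and 0.0731 to 0.216 and 0.545 to 0.667 RPKM in brown groups. The sums of endothelial, Schwann cell and skeletal muscle markers were lower with Fgf8b, as Spry1 was, and the epithelial sum was higher, as the other members were. The leukocyte sum was lower with Fgf8b in brown preadipocytes, while its ranges overlapped in white ones. Single markers did not all follow their sum. Endothelial Cdh5 averaged 1.13 and 1.92 RPKM in white and 0.571 and 0.844 RPKM in brown control and Fgf8b libraries, and epithelial Cdh1 averaged 0.0455 and 0.00325 RPKM in white and 0.0685 and 0.0151 RPKM in brown ones. The leukocyte markers Cd68 and Lyz2 moved in opposite directions. Cd68 averaged 0.913 and 1.61 RPKM in white and 0.593 and 1.10 RPKM in brown control and Fgf8b libraries. Lyz2 averaged 1.22 and 0.0919 RPKM in white and 2.96 and 0.171 RPKM in brown ones. The muscle sum was nearly all Acta1, a skeletal actin, at 5.94 and 2.05 RPKM in white and 9.29 and 2.28 RPKM in brown groups, and the epithelial sum with Fgf8b was mostly Krt18. Their part in the result was not tested.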

How the data were processed

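Total RNA of 16 primary preadipocyte samples was sequenced. Per the labels, libraries were made with a TruSeq RNA kit. CASAVA and bcl2fastq are named in the submitters' processing notes. No source used here gives the aligner, build or strand setting. The authors deposited 1 table of RPKM per transcript with decimal commas and 168326 entries. Entries without a gene symbol (23172, 13.8%) and 808 entries with a repeated accession were left out, 2 of them Spred1 entries, and the rest were summed to 29060 genes. Small values are whole reads over length and depth (95.6 to 96.0% of those up to 50 reads, with a tolerance of 0.1 reads), from which depth was recovered, and the reads behind 33 member entries were whole within 0.00468 reads. No count model was used.

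Groups were tested on log2(RPKM + 0.5) with limma 3.58.1 in R 4.3.3, 1 model with 4 group means, 5 contrasts, trend and robust eBayes moderation. The 15222 genes tested reached 0.5 RPKM in 4 or more libraries. The fit was also run on simulated data with few changed genes, all in the white Fgf8b group. That setting differs from the broad changes called here, so the run does not test them. The plan preferred counts, which the table does not hold. The alternatives were other pseudocounts, filters, scalings, gene values, moderation, samples in the fit, a 1.5-fold minimum and each library left out. The members and lists were chosen with earlier results of these data known, and the search for GGAA and 1 alternative, keeping repeated accessions, were added after seeing them. All members are named, from each list at most the 3 called genes with the largest change and a mean of at least 1 RPKM, and 3 nearest genes per member. The planned comparison of protein sequences was not run. Values of 1 listed gene are not reported here. Tables and figures were made in Python 3.11.15 with numpy 2.4.6, pandas 2.3.3 and matplotlib 3.10.9.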

Additional observations from a re-analysis of the deposited data

Results flagged for a closer look

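The Fgf8b response of 5 members differed between the depots by limma's test of the difference itself, as log2 fold change in brown minus that in white preadipocytes. The difference was 1.13 for Spry4, 0.85 for Spry2, 0.44 for Spry1, 0.40 for Spred2 and 0.31 for Spred1, with Spry1 falling less and the others rising more in brown preadipocytes. The SEs and adjusted p-values stand with the comparison of the responses above. On the representative transcripts, no library stood out from its group by Dixon's test in the 28 groups of 4 libraries tested. In such groups chance marks about 1 in 20. Other entries of the members were not covered by this test. Brown control 15 had the largest root mean square log2 distance from the rest of its group, 0.279. The entries in which that library lay unequally far from the other brown controls are given above.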

How the results depend on the processing

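Of 945 recomputed fold changes of members, 911 kept their direction and their side of the threshold, and 28 of the 35 member results kept both under all 27 alternatives. Calls for Fgf8b in white preadipocytes and for the difference of the responses changed for no member under these. Not all alternatives were separate. The difference of the responses compares all groups, so its fit of only the groups compared is the main fit itself. For members, RefSeq entries alone hold the same values as the representative transcript. A 1.5-fold minimum, applied to the counts of calls, left 3904 genes for Fgf8b in white, 4803 for Fgf8b in brown, 1357 for the control depots, 2013 for the Fgf8b depots and 1715 for the difference. Among members it left 7 of 7 for Fgf8b in white, 6 of 7 for Fgf8b in brown, 1 of 5 for the control depots, 1 of 3 for the Fgf8b depots and 2 of 5 for the difference. For the Fgf8b depots, 5 members were called on the representative transcript, 5 on RefSeq entries alone, 6 when only the groups compared were fitted, and 3 to 6 when 1 library was left out. Leaving out a control library, or fitting only the groups compared, cannot move the log2 fold changes of this comparison. It changes only the estimate of the spread and with it the p-values. For the other alternatives the cause was not tested. The rise of Spry3 in brown preadipocytes was also lost with median-of-ratios factors (limma adjusted p = 0.0597), upper-quartile factors (limma adjusted p = 0.0823), RefSeq entries alone (limma adjusted p = 0.106) and a fit of only the groups compared (limma adjusted p = 0.0714), while that last fit also ended the call of Spred3 between control depots (limma adjusted p = 0.1001). With 1 library left out, the log2 difference of Spry3 between Fgf8b depots, -0.06 with all, ran from -0.17 to 0.0067, the latter without brown Fgf8b 12, and was called in none. Other scalings moved the median of all genes by at most 0.07 on the log2 scale. Spry3 rests on 33 to 82 reads per library, which limits its precision. No paired analysis was run, because the groups share no replicate numbers and no label ties a control to an Fgf8b library.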
